A study of Schizosaccharomyces pombe with 4 samples.

Results

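The 10 genes described here encode core factors of RNA interference (RNAi) and heterochromatin in fission yeast, S. pombe: ago1, dcr1, rdp1, chp1 and tas3 of the RNAi pathway, clr4 and swi6, which write and read the heterochromatin mark, the histone deacetylase genes clr3 and sir2, and epe1, which opposes silencing. They were chosen by name. Each name matched 1 gene row of the deposited table, so that 10 of 5129 protein-coding genes, and of 9111 transcription units in all, were followed. Their values came from native elongating transcript sequencing (NET-seq), in which RNA polymerase II (RNAPII) is purified with the transcripts it is making and the 3′ ends of these transcripts are sequenced on the strand they came from.

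The groups were nascent RNA (IP, 2 libraries) and total RNA (input, 2 libraries). All 4 libraries came from a single wild-type (WT) strain, YAM2492, in which the RNAPII subunit Rpb3 carries a flag tag (Rpb3-flag), grown exponentially in rich medium with no treatment. IP RNA was recovered with RNAPII on an anti-FLAG gel. Input RNA came from the same 2 biological samples and went through the same library steps without the purification. No untagged strain was analysed here, so RNA that binds the gel without RNAPII was not measured.

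In fission yeast, RNAPII transcribes the repeats around the centromeres. Rdp1, an RNA-dependent RNA polymerase, makes these transcripts double-stranded, Dcr1 (Dicer) cuts them into small RNAs, and Ago1 (Argonaute) carries the small RNAs in a complex with Chp1 and Tas3 back to the chromatin. There Clr4 methylates histone H3, the chromodomain protein Swi6 binds the mark, and the deacetylases Clr3 and Sir2 remove acetyl groups from histones. Epe1, a protein of the JmjC family, limits the spread of this chromatin. The genes of these factors are themselves ordinary RNAPII genes on the chromosome arms, and it is their own transcription that is described below.

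The 2 IP libraries held 7100000 and 7117477 reads, and the 2 input libraries 9082385 and 9823089, where 7100000 is a fixed anchor that sets the absolute level. The unit used is RPKM, reads scaled by the length of the unit in kb and by the size of the library, and 3 reads on 1 kb came to 0.305 to 0.423 RPKM. Protein-coding genes, without those that share sequence with a small RNA, took 49.1% and 47.9% of IP reads, against 3.34% and 6.68% of input reads. Transfer RNAs took 5.59% and 5.79% of IP reads, against 94.5% and 89.9% of input reads. A typical (median) gene thus had 369 and 338 IP reads, against 17 and 35 input reads. Replicates correlated across units at Pearson's r = 0.986 in IP and 0.983 in input, on the log2(RPKM + 1) scale. Units are not independent replicates.

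The first question was how strongly each factor gene was transcribed. The nascent signal of the 10 genes was modest and covered a narrow range. Their median was 17.8 RPKM in IP, against 25.4 RPKM for all protein-coding genes, and 8 of the 10 lay below that gene median. In IP they ran from 8.20 RPKM for sir2 to 29.7 RPKM for swi6, and the quartiles of all genes stood at 13.9 and 45.4 RPKM. None of the 10 reached the upper quartile, and clr4, tas3 and sir2 lay below the lower one. The input median of the 10 genes was 0.692 RPKM, and that of all protein-coding genes 1.37 RPKM, with 7 of the 10 below the gene median. These are bulk cultures, in which fewer transcribing cells and fewer polymerases per cell cannot be told apart.

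**Figure D1:**
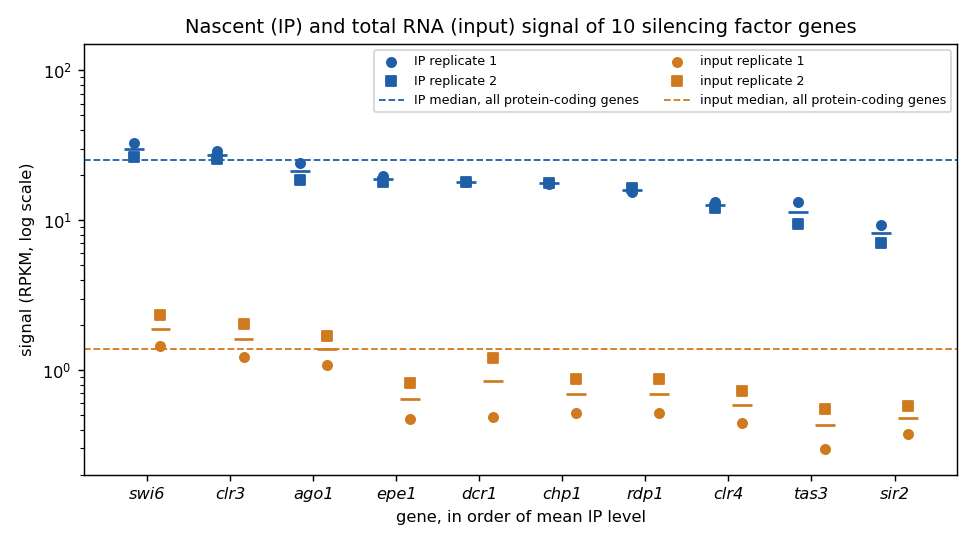
Signal in RPKM (log axis) of the 10 factor genes, ordered by mean IP level, in each IP library (blue) and each input library (orange), with short bars for the mean of 2 libraries and dashed lines for the median of all protein-coding genes in each group. The IP values lie between 7.07 and 32.8 RPKM and the input values between 0.299 and 2.32 RPKM, and no gene's IP and input values overlap. The share of all genes without such overlap was not counted, but limma called 98.3% of 5068 protein-coding genes higher in IP.

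In the order of mean IP level the genes were swi6, clr3, ago1, epe1, dcr1, chp1, rdp1, clr4, tas3 and sir2. In 4 of the 9 neighbouring pairs the ranges of the 2 IP libraries overlapped, namely swi6 and clr3, ago1 and epe1, epe1 and dcr1, and clr4 and tas3. In 2 further pairs the libraries did not overlap but the 95% counting intervals over both IP libraries did (exact Poisson, counting error only), at 17.0 to 18.9 RPKM for dcr1, 16.5 to 18.8 RPKM for chp1 and 15.0 to 16.9 RPKM for rdp1. The order of chp1 relative to dcr1 and to rdp1 is therefore not resolved either. The genes at opposite ends of the order were separate, since swi6 had at least 26.6 RPKM in either IP library, against at most 9.33 RPKM for sir2. In input the order of means began with swi6, clr3 and ago1 as well, followed by dcr1, chp1, rdp1, epe1, clr4, sir2 and tas3. In every neighbouring pair of that order the ranges of the 2 input libraries overlapped, so neighbours in input are not told apart.

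Among the RNAi genes, ago1 encodes the Argonaute protein that holds the small RNAs. The gene (SPCC736.11; chromosome III, 334103 to 337070, + strand, build ASM294v2) had 24.2 and 18.4 RPKM in IP (509 and 389 reads), against 1.08 and 1.68 RPKM in input (29 and 49 reads). IP replicate 1 was the higher of the IP pair and input replicate 2 the higher of the input pair, and the groups did not overlap. Here and below, such a separation is not particular to the factor genes, since limma called 98.3% of protein-coding genes higher in IP. The mean IP level of 21.3 ± 4.06 RPKM (SD, n = 2) was above that of 41.3% of protein-coding genes. It is 1 of only 2 of the 10 genes with an intron inside the coding sequence.

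dcr1 encodes Dicer, the nuclease that makes the small RNAs, and is the longest of the 10 genes at 5626 nt, longer than 98.2% of protein-coding genes. It (SPCC188.13c; III, 1504949 to 1510574, − strand) had 17.9 RPKM in each IP library (716 reads each), against 0.489 and 1.21 RPKM in input (25 and 67 reads). The IP libraries were nearly equal while input replicate 2 stood 2.48-fold above input replicate 1, the widest input ratio of the 10. The mean IP level was 17.9 ± 0.031 RPKM (SD, n = 2), above 34.4% of genes.

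rdp1 encodes the RNA-dependent RNA polymerase. It (SPAC6F12.09; I, 1324591 to 1329061, + strand) had 15.4 and 16.5 RPKM in IP (488 and 524 reads), against 0.517 and 0.865 RPKM in input (21 and 38 reads). Here IP replicate 2 was the higher, and IP and input lay far apart. Its mean of 15.9 ± 0.773 RPKM (SD, n = 2) placed it above 29.8% of genes.

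chp1 and tas3 encode the partners of Ago1 in the complex that returns small RNAs to chromatin. chp1, whose protein has a chromodomain (SPAC18G6.02c; I, 2210810 to 2214664, − strand), had 17.4 and 17.8 RPKM in IP (477 and 488 reads), against 0.514 and 0.871 RPKM in input (18 and 33 reads). The tas3 gene, whose protein bridges Chp1 and Ago1 (SPBC83.03c; II, 1514006 to 1516211, − strand), had 13.2 and 9.49 RPKM in IP (207 and 149 reads), against 0.299 and 0.554 RPKM in input (6 and 12 reads). The chp1 level was steady between the IP libraries and tas3 was lower in IP replicate 2, and in both genes IP and input were separate. At 17.6 ± 0.253 and 11.4 ± 2.64 RPKM (SD, n = 2 each) chp1 and tas3 exceeded 33.7% and 18.7% of genes. The IP ranges of chp1 and tas3 did not overlap. This difference between subunits of 1 complex was not tested.

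clr4 encodes the methyltransferase that writes the heterochromatin mark. It (SPBC428.08c; II, 453996 to 458487, − strand) had 13.3 and 12.14 RPKM in IP (424 and 388 reads), against 0.441 and 0.725 RPKM in input (18 and 32 reads). These IP values were close to each other and far above both input values. The mean of 12.7 ± 0.819 RPKM (SD, n = 2) lay above that of 21.97% of genes. Much of this annotated gene is not coding, and the level depends on which part is counted, as described further on.

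swi6 encodes the chromodomain protein of the HP1 family that binds the mark, and it had the highest nascent signal of the 10. It (SPAC664.01c; I, 1702406 to 1704073, − strand) had 32.8 and 26.6 RPKM in IP (388 and 316 reads), against 1.45 and 2.32 RPKM in input (22 and 38 reads). Input was also highest for swi6, and IP and input did not overlap. Its mean IP level, 29.7 ± 4.35 RPKM (SD, n = 2), was above 57.8% of genes. It is also the shortest of the 10, at 1668 nt, and the only one shorter than the median gene of 1886 nt.

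The deacetylase genes stood near opposite ends of the order. clr3, which encodes the histone deacetylase of the SHREC complex (SPBC800.03; II, 254715 to 257138, + strand), had 28.99 and 25.8 RPKM in IP (499 and 445 reads), against 1.23 and 2.02 RPKM in input (27 and 48 reads). The sirtuin gene sir2, whose product uses NAD as a cofactor (SPBC16D10.07c; II, 3609217 to 3611858, − strand), had 9.33 and 7.07 RPKM in IP (175 and 133 reads), against 0.375 and 0.578 RPKM in input (9 and 15 reads). In neither gene did IP and input overlap, and every IP value of clr3 was above every IP value of sir2. The means were 27.4 ± 2.26 RPKM for clr3 and 8.20 ± 1.60 RPKM for sir2 (SD, n = 2 each), above 53.8% and 12.3% of genes.

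epe1, the gene of the factor that limits silencing (SPCC622.16c; III, 1431048 to 1435036, − strand), had 19.8 and 17.9 RPKM in IP (562 and 508 reads), against 0.469 and 0.817 RPKM in input (17 and 32 reads). Its nascent signal was in the middle of the 10, and IP and input did not overlap. Its mean input signal was the seventh, but its input range overlapped those of chp1 and rdp1 just above it, so that rank is not resolved. The mean IP level of 18.9 ± 1.38 RPKM (SD, n = 2) exceeded 36.3% of genes, whereas the mean input level exceeded 24.4%.

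The second question was whether nascent and total RNA differed. Under the authors' scaling, where each library is divided by its uniquely mapped reads, all 10 genes were higher in IP. The log2 change on the RPKM + 1 scale, which understates the change of low genes, ran from 2.63 (SE 0.20, limma adjusted p = 0.000704) for sir2 to 3.60 (SE 0.20, limma adjusted p = 0.000632) for epe1. The median of the 10 was 3.35, against 3.28 for all protein-coding genes. This is no property of the factor genes, since the same limma fit called 92.8% of 8912 units and 98.3% of 5068 protein-coding genes higher in IP. It called 0.920% of units (82 units) lower, none of them among the 10, which limma placed lower in 0 cases at an unadjusted p under 0.05 too. That count was 46 without IP replicate 1 and 42 without IP replicate 2.

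Expressed without a pseudocount, IP signal was 22.5-fold (ago1) to 44.1-fold (tas3) above input in pair 1, with a median of 29.9 against 25.7 for the protein-coding genes that had input reads. In pair 2 it was 11.0-fold (ago1) to 21.9-fold (epe1) above input, with a median of 15.7 against 12.2 for the genes with input reads. Input replicate 2 exceeded input replicate 1 for all 10 genes, by 1.54- to 2.48-fold, and the median protein-coding gene differed in the same direction by 1.94-fold. The ratios rest on 6 to 67 input reads per gene, whereas IP gave 133 to 716 reads, so the input library sets their precision. For tas3, 6 input reads in replicate 1 gave a counting interval of 0.110 to 0.652 RPKM.

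The direction depended on the scaling. When edgeR with TMM scaling, which centres the comparison on the bulk of units, was run on the recovered reads, it called 14.7% of units higher and 14.7% lower, and 17.4% of protein-coding genes higher. Of the 10 genes it called 2 higher, epe1 and chp1, and none lower, and at an unadjusted p under 0.05 edgeR had 5 higher and 0 lower. The epe1 change was 0.84 on the log2 scale (SE 0.19, edgeR adjusted p = 0.00323), and the chp1 change was 0.64 (SE 0.19, edgeR adjusted p = 0.0205). Neither call held with DESeq2 on the same reads (DESeq2 adjusted p = 0.0523 for epe1 and 0.188 for chp1) or with quantile normalization (limma adjusted p = 0.237 and 0.580). The other 8 ran from −0.088 for ago1 to 0.70 for tas3 (SE 0.34, edgeR adjusted p = 0.149), with 6 of these 8 above 0. The median of the 10 was 0.40, against 0.066 for all protein-coding genes, as a description only. Because input libraries were prepared from the same samples as the IP libraries, the replicate number was also used as a block. With the replicate block, edgeR called 16.3% of units higher and, of the 10 genes, rdp1 as well (0.52, edgeR adjusted p = 0.0323), which without the block had 0.50 (edgeR adjusted p = 0.0633).

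When each library was centred on its protein-coding median, which takes 3.50 off every log2 change, the 10 genes stood between −0.87 for sir2 and 0.10 for epe1. The median protein-coding change before centring, 3.28, is smaller than 3.50, so the median gene turns negative as well. On this log2(RPKM + 1) scale, which understates the change of low genes, only ago1, clr4, tas3 and sir2 lay below that median. Without a pseudocount, the gene medians were 25.7-fold in pair 1 and 12.2-fold in pair 2. There clr4 (30.1 and 16.7) and tas3 (44.1 and 17.1) were above both medians. By the same ratios ago1 (22.5 and 11.0) was below both, and sir2 (24.9 and 12.2) was near them. After centring, sir2 alone of the 10 genes was called (limma adjusted p = 0.00198), and it was lower in IP, as were 54.5% of all units. Under edgeR with TMM the sir2 change was 0.072 (SE 0.31, edgeR adjusted p = 0.883).

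**Figure D2:**
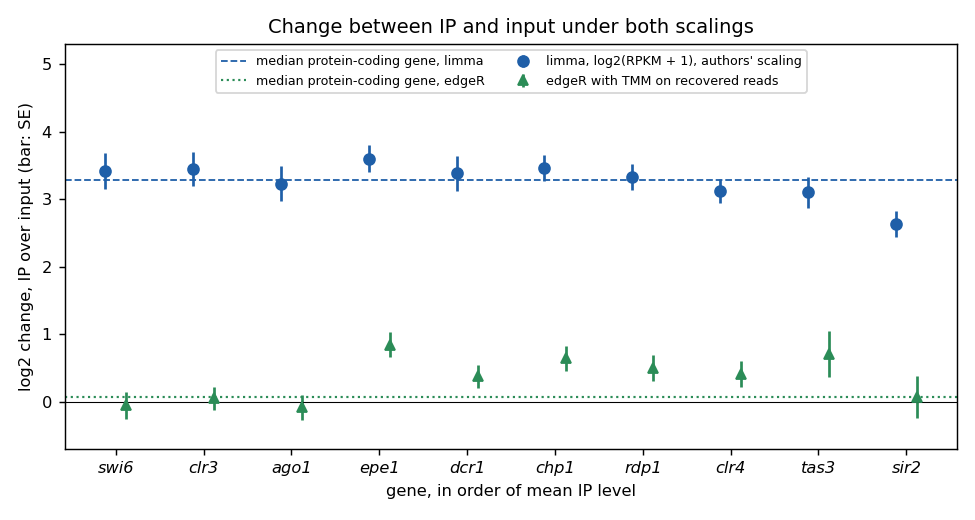
The log2 change of IP over input (y axis) for each factor gene with its standard error, from limma on log2(RPKM + 1) under the authors' scaling (blue circles) and from edgeR with TMM on recovered reads (green triangles), with the median protein-coding gene as a dashed and a dotted line. Circles lie between 2.63 and 3.60 and triangles between −0.088 and 0.84, and epe1 is the highest in both; the fits differ in pseudocount and model as well as in scaling.

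The table counts coding segments separately from the whole gene interval, which shows where the nascent reads lay. Reads outside the coding segments come from untranslated stretches and, in ago1 and sir2, from introns, which the table does not separate. In the 8 factor genes with a single coding segment, the level outside it was a median of 0.727 of the level inside, and in 7 of the 8 both IP libraries had less signal outside. Over 2331 protein-coding genes with a single segment, at least 100 nt outside it and at least 50 IP reads in it, the median was 0.586 (quartiles 0.432 and 0.771), and 89.4% of them had less signal outside.

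The exception was epe1. Outside its coding segment it had 24.2 and 17.0 RPKM in IP (196 and 138 reads), and inside it 18.1 and 18.3 RPKM (366 and 370 reads). The mean ratio of 1.13 was above that of 92.8% of the genes compared. It rests on IP replicate 1, where the ratio was 1.34, as against 0.93 in IP replicate 2. At the other end, clr3 had 20.0 and 12.0985 RPKM outside and 30.6 and 28.2 RPKM inside, a mean ratio of 0.546, the lowest of the 8. tas3 was close to it, at 0.554.

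The mean IP level of clr4 over its coding segment was 1.32-fold that over its gene interval, and the same ratio was 1.30 for sir2. Its annotated interval of 4492 nt holds 1473 nt of coding sequence and a 3′ stretch of 2579 nt, longer than that of 98.9% of genes, where the median gene has 243 nt. Outside the coding segment clr4 had 11.0 and 10.5 RPKM in IP, and inside it 18.1 and 15.4 RPKM. By coding segment it passed rdp1, which had 15.5 and 17.1 RPKM, although the ranges of clr4 and rdp1 then overlap. By this measure the median of the 10 factor genes was 18.1 RPKM and that of all protein-coding genes 31.0 RPKM, and 9 of the 10 lay below that gene median.

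Long untranslated stretches were found at other factor genes as well. The 3′ stretch of dcr1 has 1217 nt, longer than 93.7% of genes, and its level was 0.813 of the coding level. The 5′ stretches of chp1 and rdp1 have 805 and 662 nt, longer than 93.3% and 91.0% of genes. For chp1 and rdp1 the signal outside the coding segment was 0.912 and 0.882 of that inside. By contrast ago1 has a 3′ stretch of only 58 nt, longer than that of just 11.5% of genes.

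**Figure D3:**
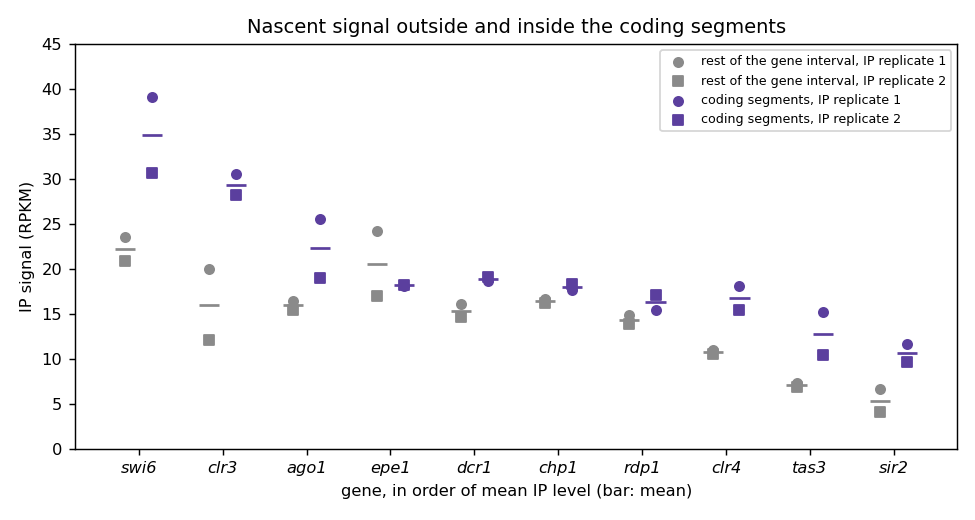
IP signal in RPKM (linear axis) over the gene interval outside the coding segments (grey) and over the coding segments (purple) of the 10 factor genes, per IP library, with bars for the mean. In 9 of the 10 genes the grey point lies below the purple one in both libraries, while in epe1 IP replicate 1 has 24.2 RPKM outside and 18.1 RPKM inside.

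The introns of ago1 and sir2 are the only ones inside coding sequence among the 10 genes. Their first 20 bases are shown with the first 6 in capitals, the part that pairs with U1 snRNA in splicing, since these are the places where a nascent transcript still holds sequence that the mRNA lacks. They are read 5′ to 3′ on the gene's strand from the RefSeq genome ASM294v3, in which the coding coordinates of all 10 genes are the same as in the table.
ago1 intron 1 (III:334266-334285, +): GTAAGTtcctagaaatcgca
sir2 intron 1 (II:3611353-3611372, −): GTATGAatatcaactattaa
sir2 intron 2 (II:3611127-3611146, −): GTAAGGagttacttaattta
sir2 intron 3 (II:3611003-3611022, −): GTATGCttactgatttataa
sir2 intron 4 (II:3610841-3610860, −): GTATGCttttctttaacttc
sir2 intron 5 (II:3610319-3610338, −): GTAAGTatttattttccgat
The 6 introns all begin with GT, and none begins with GTATGT, the start of 20.0% of the 5061 introns within coding sequence in that genome. A branch point letter string, CTAAC, searched on the intron's own strand in its last 40 bases, was found in 1 of the 6, sir2 intron 4, and in 44.4% of all these introns. Its end is given here with CTAAC and the closing AG in capitals.
sir2 intron 4, 3′ end (II:3610776-3610815, −): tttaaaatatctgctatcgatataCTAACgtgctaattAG
A match is a description of letters and not a mapped branch point.

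Along ago1 the short first coding segment, upstream of that intron, had 55.7 and 29.4 RPKM in IP (51 and 27 reads), and the long second segment had 23.9 and 18.4 RPKM (404 and 311 reads). The first segment was thus 2.01-fold above the second. This gradient is usual, since 158 genes with segments of similar length had a median of 2.21, and 42.4% of them lay below ago1. In sir2 the 6 segments of 32 to 629 nt had 8.37 to 26.4 RPKM on average in IP. The highest of these was the 32-nt segment, with 7 and 5 reads, too few to set it apart.

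The third question was whether units on the other strand overlap these genes and are transcribed. A non-coding antisense unit (an annotated ncRNA, a non-coding transcription unit, or an XUT, a transcript that accumulates without the exoribonuclease Exo2) was counted where it overlapped a gene by at least 50 nt. Of the 10 genes, 5 had such a unit (36.2% of all genes), and 2 of the 10, epe1 and sir2, had one with a mean above 1 RPKM in IP, against 30.9% of all 5129 protein-coding genes. Without IP replicate 2, clr4 also passed, through XUT0994. Counting protein-coding units on the other strand too gave 4 of the 10, with dcr1 and clr4 added, against 56.97% of all genes. The table holds no antisense value for stretches without an annotated unit, so antisense signal outside these units was not measured.

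**Figure D4:**
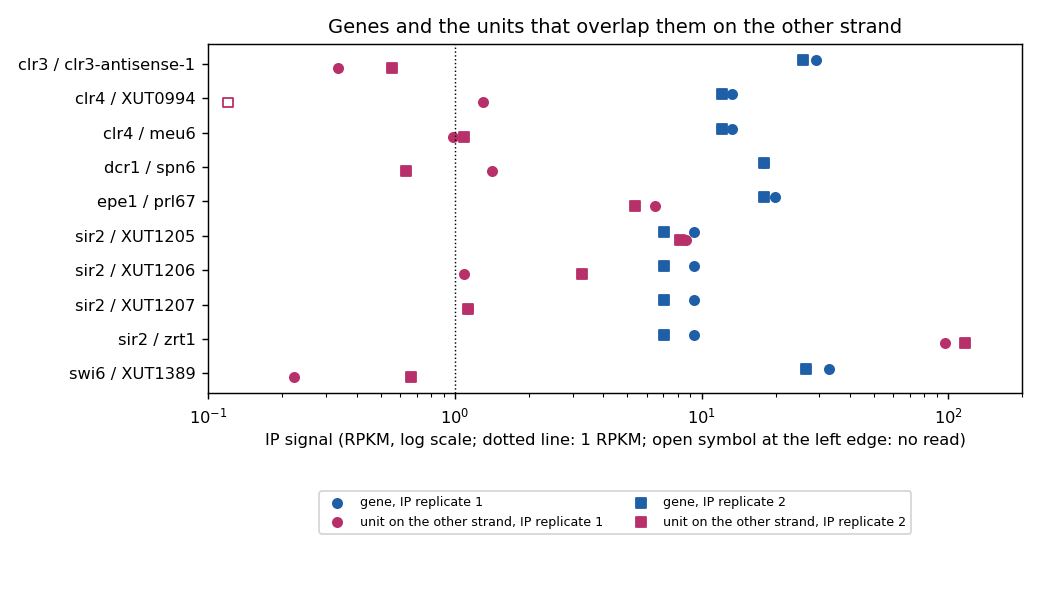
IP signal in RPKM (log axis) of a factor gene (blue) and of a unit on the other strand that overlaps it by at least 50 nt (pink), 1 pair per row, with circles for IP replicate 1 and squares for IP replicate 2; the open square marks a library with no read and the dotted line is 1 RPKM. The gene lies above the unit in every row except those of sir2 with zrt1, at 107 RPKM, and with XUT1205, at 8.39 RPKM, whose points meet those of sir2.

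Within epe1 lies prl67, a non-coding RNA gene (SPNCRNA.67; III, 1431135 to 1433068, + strand, 1934 nt) that covers 48.5% of epe1 from its 3′ part, including 1370 nt of coding sequence. It had 6.48 and 5.38 RPKM in IP (89 and 74 reads), against 0.0569 and 0.105 RPKM in input (1 and 2 reads). The signal was thus present in both IP libraries and near the limit of detection in input. Its change was 2.68 on the log2(RPKM + 1) scale (SE 0.14, limma adjusted p = 0.000632), and 2.15 by edgeR with TMM (edgeR adjusted p = 0.0186). epe1 itself stood 3.18-fold above prl67 in IP. The epe1 gene ends far from the next opposite 3′ end, that of SPCC622.14, at 1584 nt. SPCC622.14 lies on the strand of prl67, upstream of it, and had 40.2 RPKM in IP. Signal of prl67 and SPCC622.14 transcription running past its annotated end cannot be told apart here, and this was not tested. The start of epe1 lies 43 nt from that of apn1, a DNA repair gene.

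sir2 was the gene with the most antisense units, 3 XUTs. XUT1205 (II, 3609751 to 3610077, + strand, 327 nt, all opposite coding sequence) had 8.61 and 8.16 RPKM in IP (20 and 19 reads), against 0 and 0.311 RPKM in input (0 and 1 read). In IP the ratio of sir2 to XUT1205 was 1.08 in replicate 1 and 0.866 in replicate 2, so their levels were not told apart, and the counting interval of XUT1205 over both libraries was 5.97 to 11.5 RPKM. XUT1206 averaged 2.18 ± 1.54 RPKM in IP (SD, n = 2; 2 and 6 reads) and XUT1207 1.13 RPKM (3 reads in each library), both at or near the floor of 3 reads. Only 26 of the 1086 genes with an antisense XUT had 3 or more. At its 3′ end sir2 overlaps by 114 nt the zinc transporter gene zrt1, which had 96.6 and 117 RPKM in IP, against 2.69 and 7.40 RPKM in input, so that zrt1 was the more highly transcribed gene of that pair in both groups. The 3 XUTs lie on the strand of zrt1, downstream of its annotated end at 3609330, with XUT1205 the nearest and XUT1207 the farthest. Signal of the XUTs and zrt1 transcription running past that end cannot be told apart here, and this was not tested.

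At the other genes, antisense units were near the floor. The ncRNA clr3-antisense-1 (SPNCRNA.1331, 2522 nt) runs along the whole of clr3 and had 0.335 and 0.557 RPKM in IP (6 and 10 reads), which left clr3 61.4-fold higher. Opposite the start of swi6, XUT1389 had 1 and 3 reads in IP, against 0 and 1 read in input. Opposite clr4, XUT0994 had 3 and 0 reads in IP. An annotated antisense unit over a whole gene, as at clr3, or over a gene's start, as at swi6, was thus not accompanied by much nascent antisense signal in these libraries.

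Genes that are used mainly in meiosis lie opposite 2 of the factor genes, clr4 and dcr1. meu6 (SPBC428.07; II, 454108 to 456553, + strand) is annotated wholly within clr4 on the other strand, covering 54.5% of it but none of its coding sequence. It had 0.979 and 1.09 RPKM in IP (17 and 19 reads), against 0 and 0.166 RPKM in input (0 and 4 reads), and clr4 stood 12.3-fold above it in IP. spn6, a septin gene of meiosis (SPCC188.12; III, 1504862 to 1506851, + strand), overlaps dcr1 by 1903 nt, of which 686 nt are dcr1 coding sequence. It had 1.42 and 0.635 RPKM in IP (20 and 9 reads), against 0 and 0.102 RPKM in input (0 and 2 reads), with dcr1 17.5-fold higher in IP. Both lay at about 1 RPKM on average, and spn6 was below it in IP replicate 2. Of all genes, 201 contain a whole protein-coding gene on the other strand, and clr4 is the only one of the 10.

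The first 30 coding bases of both are shown, because they mark where the opposite gene begins within or beside the 3′ stretch of the factor gene, with the start codon in capitals (RefSeq, ASM294v3).
meu6, opposite clr4 (II:454230-454259, +): ATGtcttatgagggccgtgaagaacgacct
spn6, opposite dcr1 (III:1504941-1504970, +): ATGtctttgactgaaaaccttcaattatta
The meu6 start lies inside the annotated clr4 interval, and the spn6 start codon lies just outside the annotated end of dcr1, which the run of bases crosses. A gene start of the other strand within the 3′ untranslated stretch was found in 4.09% of protein-coding genes, and clr4 was the only one of the 10.

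**Figure D5:**
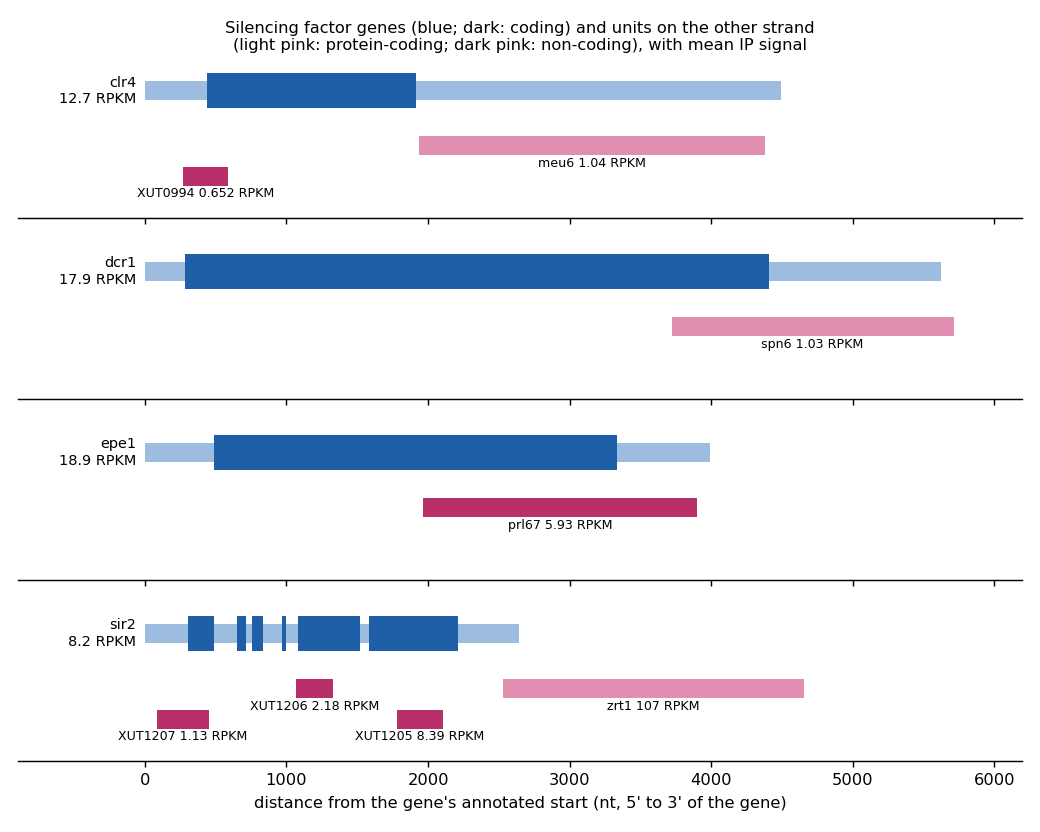
Maps to scale of clr4, dcr1, epe1 and sir2 (blue, with coding segments dark) and of units on the other strand (light pink for protein-coding, dark pink for non-coding), with the mean IP signal of each; the x axis is the distance in nt from the annotated start of the gene, in its own direction. The opposite units lie mostly over the downstream part of clr4, dcr1 and epe1, while sir2 carries 3 XUTs along its length and zrt1 at its end.

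Many S. pombe genes meet another unit end to end. Of the 10 factor genes, 6 had the 3′ end of a unit on the other strand within 500 bp of their own, as did 54.8% of all protein-coding genes. ago1 faces mmi1, which encodes an RNA-binding protein of meiotic mRNA elimination, at 40.2 RPKM in IP. rdp1 faces ade3, a purine synthesis gene, at 102 RPKM. tas3 faces ucp8 at 40.5 RPKM. At these sites the genes end close to each other, and the bases between the annotated 3′ ends are shown in full, on the + strand and in lower case, to give the scale of the gap (RefSeq, ASM294v3).
ago1 and mmi1, 17 nt (III:337071-337087, +): gcccacaacttttactt
rdp1 and ade3, 29 nt (I:1329062-1329090, +): acacatatactcgatggttaaagcaattt
ucp8 and tas3, 42 nt (II:1513964-1514005, +): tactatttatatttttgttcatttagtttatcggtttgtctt
The remaining members of this group were dcr1, 284 nt from prp45, a splicing factor gene with 36.3 RPKM, then swi6, 134 nt from the ncRNA SPNCRNA.177 with 7.68 RPKM, and sir2 with zrt1. The ncRNA was lower in IP than swi6, and the 5 facing protein-coding genes were each higher in IP than the factor gene they meet. Over all 2044 genes that face a protein-coding gene in this way, the facing gene was higher in 49.95%, a share that the pairing of genes with each other holds near that level. That share is therefore no background for these 5 factor genes, which all lay below the protein-coding median in IP. No share was computed for genes of similar level, so the higher facing genes are not read as a trait of the factor genes. These neighbours were taken by position and not by their values. At the start of rdp1, the exocyst gene exo84 on the other strand shares 44 nt with it and had 12.8 RPKM in IP, near the 15.9 RPKM of rdp1.

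The partners of these factors were followed as 34 further genes in 6 lists. Their median IP level was 19.5 RPKM, with 23 of the 34 below the protein-coding median, so the wider pathway was placed much like the 10. The 10 other RNAi genes had the lowest median, 10.4 RPKM, with 9 below the gene median, and ran from 4.82 RPKM for stc1, which links RNAi to the Clr4 complex, to 37.0 RPKM for cid14, a poly(A) polymerase of the TRAMP complex. The 4 genes of the Clr4 complex (CLRC) had a median of 19.4 RPKM. They ran from 12.8 RPKM for rik1 to 26.1 RPKM for the cullin gene pcu4. Over its gene interval clr4 itself, at 12.7 RPKM, was as low as rik1. Its coding segment had 16.8 RPKM, and rik1 was not compared by coding segment. The 4 genes of HP1 and SHREC partners had a median of 15.5 RPKM, from 10.8 RPKM for chp2 to 17.0 RPKM for clr1, all below clr3 and swi6.

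The lists of genes with an opposite or a more general role had higher medians in IP. The 5 anti-silencing genes had a median of 27.4 RPKM in IP, from 14.2 RPKM for the acetyltransferase gene mst2 to 67.3 RPKM for bdf2, a bromodomain protein gene, and only mst2 lay below the gene median. The 4 other deacetylase genes had a median of 24.0 RPKM, from 21.4 RPKM for the sirtuin gene hst2 to 27.1 RPKM for clr6, so that sir2 at 8.20 RPKM was below all of them and clr3 at 27.4 RPKM was close to clr6. The median of the 7 other silencing factors was 28.0 RPKM, from 19.3 RPKM for lem2 to 66.2 RPKM for the remodeller gene fft3. No test was made between lists, which were not drawn at random.

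Between IP and input, limma called all 34 partner genes higher, where 98.3% of protein-coding genes were. With edgeR and TMM, 14 of the 34 were called higher and 2 lower, where 17.4% of protein-coding genes were called higher and 14.7% of all units lower. The count of partner genes called higher was 6 with DESeq2, 2 with quantile normalization and 4 after centring. Of the 8912 units, these fits called 707, 916 and 819 higher, in the same order. These counts, and the 14.7% called lower by edgeR, include non-coding units. For them no share of protein-coding genes alone was computed. The genes named next were picked out after their calls were seen. Among those called higher in IP were clr1, mit1 and clr2 of the 4 HP1 and SHREC partners, and hrr1 and tri1 of the 10 RNAi genes. They also included bdf2 and mst2 of the 5 anti-silencing genes, hos2 and hst2 of the 4 other deacetylase genes, and cbp1, red1 and ccq1 of the 7 other silencing factors. Called lower were paf1, an anti-silencing gene (−0.55 on the log2 scale), and hst4, a sirtuin gene (−0.77). The median edgeR change was 0.60 on the log2 scale for the 34 genes and 0.40 for the 10, against 0.066 for all protein-coding genes.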

How the data were processed

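NET-seq libraries of WT S. pombe were compared: 2 IP and 2 input, grouped by their labels. The authors aligned 50-nt reads with Bowtie to ASM294v2, kept unique hits and used their number to normalize each library. What they deposited is a signal: the normalized count of reads for each feature on its strand. The sources used here do not say how a read over several features was counted. Whole reads were recovered for 100.0% of values (tolerance 0.001 reads) and scaled to RPKM with 7100000 reads, the smallest library total that the study gives, as anchor. Of 19343 table rows, 10204 were coding segments and 9111 were units; 28 pseudogene entries listed more than once were dropped. None of the 10 genes shares nucleotides with another unit on its strand.

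IP and input were compared by limma with a trend on log2(RPKM + 1), over the 8912 units that had any read, with Benjamini-Hochberg adjustment and a threshold of 0.05. Alternatives were pseudocounts of 0.1 and 10, no filter, a mean of at least 1 RPKM, 3 other scalings, edgeR's quasi-likelihood test with TMM and DESeq2 on recovered reads, a replicate block, and each library left out. The edgeR SE is the log2 change divided by the root of its F statistic. Input comes from the same biological samples as IP, so replicate numbers pair the samples; the IP and input differences between replicates had a correlation of r = 0.0593 over units and 0.154 over protein-coding genes. The limma, edgeR and DESeq2 fits were tried on simulated data in which a minority of units changed, equally up and down. That trial therefore does not bear on the choice of scaling.

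The 10 genes, the partner lists and the tests were chosen with earlier results of these data known. Named genes were the 10, the highest and lowest gene of each partner list in IP, opposite-strand units overlapping by at least 50 nt, and for each of the 10 the gene with the nearest 4 values. Partner genes named by their edgeR calls fall outside this rule, as do neighbours named by position (mmi1, ade3, ucp8, prp45, apn1, SPCC622.14, SPNCRNA.177 and exo84). All 34 partner genes were found in the table. The edgeR calls of single genes of the Clr4 complex are not reported here. Intervals are exact Poisson at 95%. Like the floor of 3 reads, they reflect counting error alone, as the libraries have no molecular identifiers. Sequences are from RefSeq ASM294v3; no coordinate was converted. Authors' pooled columns were not used. Fits used R 4.3.3 with DESeq2 1.42.0, edgeR 4.0.16 and limma 3.58.1. Other steps used Python 3.11.15 with Biopython 1.88, matplotlib 3.10.9, pandas 2.3.3, numpy 2.4.6 and scipy 1.17.1.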

Additional observations from a re-analysis of the deposited data

How the results depend on the processing

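The direction of IP against input depended on the scaling. The 10 genes were all called higher in IP with pseudocounts of 0.1 and 10 RPKM, without a filter, with a mean of at least 1 RPKM, with the replicate block in limma, and without each library in turn, where their log2 changes ranged from 2.45 to 3.76 and the highest adjusted p was 0.0237. With library totals over protein-coding genes, 3995 units were higher and 624 lower, and 7 of the 10 genes were called higher. After centring, 819 units were higher and 4859 lower, 0 of the 10 genes were higher and 1 was lower, 4 partner genes were higher and 7 lower, and changes turned negative for swi6 (−0.083), clr3 (−0.052), ago1 (−0.28), dcr1 (−0.12), chp1 (−0.037), rdp1 (−0.17), clr4 (−0.38), tas3 (−0.40) and sir2 (−0.87). The median protein-coding gene turned negative under this centring too, so a negative value here does not place a gene below it. With quantile normalization, 916 units were higher and 703 lower, 0 of the 10 genes and 2 partner genes were higher and 1 partner gene lower, and swi6 (−0.16), clr3 (−0.11), ago1 (−0.26), clr4 (−0.080) and sir2 (−0.34) turned negative. With edgeR and TMM, 1312 units were higher and 1312 lower, 2 of the 10 genes and 14 partner genes were higher and 2 partner genes lower, and swi6 (−0.057) and ago1 (−0.088) turned negative. With DESeq2, 707 units were higher and 1128 lower, 0 of the 10 genes and 6 partner genes were higher and 1 partner gene lower, and swi6 (−0.13), clr3 (−0.023) and ago1 (−0.16) turned negative. With the replicate block in edgeR, 1449 units were higher and 1401 lower, 3 of the 10 genes and 16 partner genes were higher and 3 partner genes lower, and swi6 (−0.087) and ago1 (−0.13) turned negative. With the replicate block in limma, 8465 units were higher and 79 lower. Leaving out 1 library gave 7576 to 7744 units higher and 42 to 117 lower. Counting protein-coding units too gave 4 of the 10 genes with an antisense unit above 1 RPKM. By coding segments only, the mean IP level of 5 of the 10 genes moved by more than the SD of the 2 IP libraries. At an unadjusted p under 0.05, 0 of the 10 genes were higher after centring with limma and 0 with quantile normalization, and 1 was with DESeq2. The cause of these changes was not tested, beyond the shift that each scaling applies to all units. Input depth, 6 to 67 reads per gene, limits every IP/input ratio.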

Other observations

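The genes whose 4 values lay nearest to each factor gene were sought among protein-coding genes outside both lists, by Euclidean distance on the log2(RPKM + 1) scale. The nearest were mef1 for swi6, cms1 for clr3, cia1 for ago1, mkh1 for epe1, SPBC1271.03c for dcr1, pgc1 for chp1, par2 for rdp1, bgs2 for clr4, pgs1 for tas3 and tmp1 for sir2. The closest pair was chp1 with pgc1 at a distance of 0.03, and the least close was tas3 with pgs1 at 0.12. pgc1 had 17.3 and 17.5 RPKM in IP, against 0.536 and 0.867 RPKM in input. Each factor gene had 8 to 39 genes within a distance of 0.2, so that with 4 libraries such a likeness is common.

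The coding sequences of dcr1 and rdp1 were the most AT-rich of the 10, at 36.2% GC each, and clr4 had the most GC, at 41.4%. The median of 5145 coding sequences in ASM294v3 was 39.6%, and 6 of the 10 lay below it. The proteins ranged in length between 328 residues for Swi6 and 1374 residues for Dcr1.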
